A study of Sus scrofa with 32 samples.

Results

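The 64 genes described here encode the proteins of the cytosolic ribosome, together with a few close relatives that carry the same kind of symbol. A gene was taken when at least 1 probe set of the porcine array was annotated to its symbol alone and that symbol began with RPL or RPS and a digit, or was RPLP0, RPLP1, RPLP2 or RPSA. The ribosomal S6 kinases were left out. Each gene was represented by its brightest probe set over all arrays. The 64 genes, 38 with an RPL symbol and 26 with an RPS symbol, were drawn from 6765 genes with a symbol of their own, and all 64 passed the filter on low values. No measured difference was used to choose them.

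The samples are livers of Pietrain pig fetuses taken at 35, 63 and 91 days post coitum (dpc), with RNA of each read on its own array, 32 arrays in all. The gilts, which carried the fetuses, had received a methyl-enriched gestation diet or a control diet. Each diet had 5 arrays at 35 dpc, 6 at 63 dpc and 5 at 91 dpc. The labels give no dam, litter or fetal sex for any array, so p-values measure the spread between these arrays, and fetuses sharing a dam would make them too small.

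A ribosome has a small subunit, which reads the messenger RNA, and a large subunit, which joins the amino acids. Each is built in the nucleolus from ribosomal RNA and a set of proteins that are needed in about equal numbers. The messenger RNAs of these proteins belong to the most abundant in a growing cell, and they carry a 5′ terminal oligopyrimidine (TOP) tract through which the growth-sensing kinase mTOR controls their translation. The fetal liver is also the main blood-forming organ of mid-gestation, so bulk RNA of it mixes maturing red cells with hepatocytes. The roles given below are those known from human, mouse or yeast cells. In bulk RNA, fewer cells of a type and less RNA per cell cannot be told apart.

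Values are log2 signals as deposited, and the number of arrays limits their precision. The array medians lay between 3.83 and 4.22, and the correlation between arrays of a group between 0.938 and 0.992. The mean log2 signal of the bioC spike-in control minus that of the bioB one parted the arrays into 18 with a wide gap and 14 with a narrow one. They are called high-gap and low-gap arrays here, with 3 high-gap arrays in every group. The log2 ratio of 3′ to 5′ control probe sets was 1.90 ± 0.28 (SD) over the high-gap arrays and 1.40 ± 0.17 over the low-gap ones. It was 1.69 ± 0.26 at 35 dpc, 1.54 ± 0.28 at 63 dpc and 1.84 ± 0.42 at 91 dpc. Methyl-diet replicate 5 at 35 dpc stood apart. Its mean over the 54 canonical members with a mean signal above 13 was 14.52, against 14.76 to 14.89 in the other 31 arrays. For the members as a whole and by subunit group, counts of calls by age as deposited that changed without this array are given both ways. The red cell list (10 measured genes, such as ALAS2 and HBB) summed to 109.7 to 117.4 per array at 35 dpc, 105.3 to 112.3 at 63 dpc and 85.2 to 97.7 at 91 dpc. The hepatocyte list (16 measured genes) summed to 215.1 to 223.9, 227.9 to 233.2 and 236.4 to 238.3 at the same ages, so the tissue carried the markers its label names. Every gene of both lists that the array names passed the filter on low values.

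Most ribosomal protein genes were among the brightest on the array. Of the 64, 56 had a mean above 13 and ranked, in the median array, within the top 500 of 24123 probe sets. The highest member value was 16.19, of RPL31, while the brightest probe set of an array read 16.20 to 16.56, so the brightest members lay close to the top of the scale. RPL31, RPS29, RPS18 and RPLP0 had the 4 highest means. The 4 dimmest were RPS15A (mean 2.52), RPL30 (3.32), RPL26 (5.86) and RPL37 (7.88). All 4 are core ribosomal proteins of every cell, yet the probe sets of RPS15A and RPL30 read close to the lowest value of the table (2.20). Values at that floor have no order. Both genes stay in the counts below, where RPS15A is 1 of the 28 members called lower at 91 against 35 dpc and RPL30 is never called by age, and neither value is read as a direction. The members were steady between arrays of a group. Their median SD within groups was 0.11, against 0.35 over all 15327 probe sets tested and 0.16 over the 187 other probe sets with a mean above 13. That last set was chosen as a yardstick after the values had been seen. It was not matched to the members for signal, and 52 of the 64 members had a mean above 14.

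As deposited, the mean signal of the ribosomal proteins differed little across gestation, while single members changed by up to 2.98-fold. Over the 54 bright canonical members, the mean log2 signal per array was 14.78 ± 0.09 at 35 dpc, 14.86 ± 0.02 at 63 dpc and 14.80 ± 0.03 at 91 dpc (SD, n = 10, 12 and 10). The 3 ranges overlapped, running from 14.52 to 14.85, from 14.81 to 14.89 and from 14.76 to 14.84. The 35 dpc arrays other than methyl-diet replicate 5 averaged 14.81 ± 0.03 (SD, n = 9) and ran from 14.76 to 14.85. The median difference of the 64 members was 0.04 at 63 against 35 dpc, -0.10 at 91 against 63 dpc and -0.06 at 91 against 35 dpc. Over all probe sets tested, the same medians were 0.05, -0.03 and 0.005. With each array centred on its own median, the members' medians were -0.20, -0.17 and -0.36 and those of all probe sets -0.19, -0.10 and -0.30, so centring moved both alike. The members' median minus that of all probe sets was -0.01, -0.07 and -0.06 as deposited, and 0.008, 0.0002 and 0.07 under quantile normalization. Centring takes the same value from every probe set of an array, so it cannot change this quantity. The median size of the difference, whatever its sign, was 0.19 for the members at 91 against 35 dpc. It was 0.86 over all probe sets tested and 0.39 over the other bright ones, which were not matched to the members for signal.

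Between 35 and 63 dpc, 22 members rose and 9 fell by limma at a Benjamini-Hochberg adjusted p under 0.05. That is 48.4% of the members, against 60.5% of all probe sets called, 32.5% higher and 28% lower. Of the other bright probe sets, 34.8% were called higher and 26.2% lower. Without methyl-diet replicate 5 of 35 dpc, 20 members rose and 14 fell, and the median difference was -0.002 in place of 0.04. The split also turned on the scaling between arrays. Quantile normalization gave 15 higher and 15 lower, and centring each array on its median gave 6 higher and 45 lower. Centring moved the median of all probe sets tested by -0.24, and quantile normalization moved it by -0.07. A shift of all values down turns small rises and keeps falls whatever the genes, so these splits do not compare the firmness of rises and falls. The rises of 6 members were called under all 3 scalings, namely those of RPL5, RPL22L1, RPL4, RPS3A, RPS24 and RPL17.

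Between 63 and 91 dpc the direction was mostly down. At 91 against 63 dpc, 6 members rose and 31 fell, so 48.4% were called lower and 9.38% higher. The background for this interval was 58.5% called, 29.5% higher and 29% lower. Among the other bright probe sets, 19.8% were called higher and 41.2% lower, a tilt in the same direction. Without methyl-diet replicate 5 of 35 dpc, 6 rose and 32 fell. The sizes were small, with a median of -0.10 over the members. With the mean of the red cell genes as a covariate, 1 member was called in this interval, RPL37, and 1065 probe sets in all. That mean lay between 8.52 and 9.77 at 91 dpc and between 10.53 and 11.23 at 63 dpc. With no overlap between the ages, the fit had little with which to separate age from red cell level.

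Over the whole span, at 91 against 35 dpc, 22 members were called higher and 28 lower, 78.1% of the members against 79.9% of all probe sets tested. The background was 40.8% higher and 39.1% lower, and among the other bright probe sets 35.8% higher and 44.9% lower. These shares lay close to the background. Under centring, which moved the median of all probe sets by -0.31, the split was 9 higher and 49 lower. The background shares above are as deposited and not those under centring. The rises called under all 3 scalings were 9, those of the 6 named above with RPL34, RPL36AL and RPL9. Without methyl-diet replicate 5 of 35 dpc, 19 were higher and 31 lower: RPL12, RPL24 and RPS25 lost their call and RPL19, RPLP1 and RPS20 gained one. With the red cell covariate 8 members were higher and 3 lower, and 4465 probe sets were called in all. However, the red cell mean did not overlap between these ages either. For 14 members (21.9%) the 91 and 35 dpc arrays did not overlap, against 40% of all probe sets tested. In all, 7 members were called in no age comparison: RPL21, RPL30, RPS19, RPS20, RPS21, RPS27 and RPS27L. Without that array RPS20 was called at 91 against 35 dpc and RPS27L at 91 against 63 dpc, which leaves 5.

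**Figure D1:**
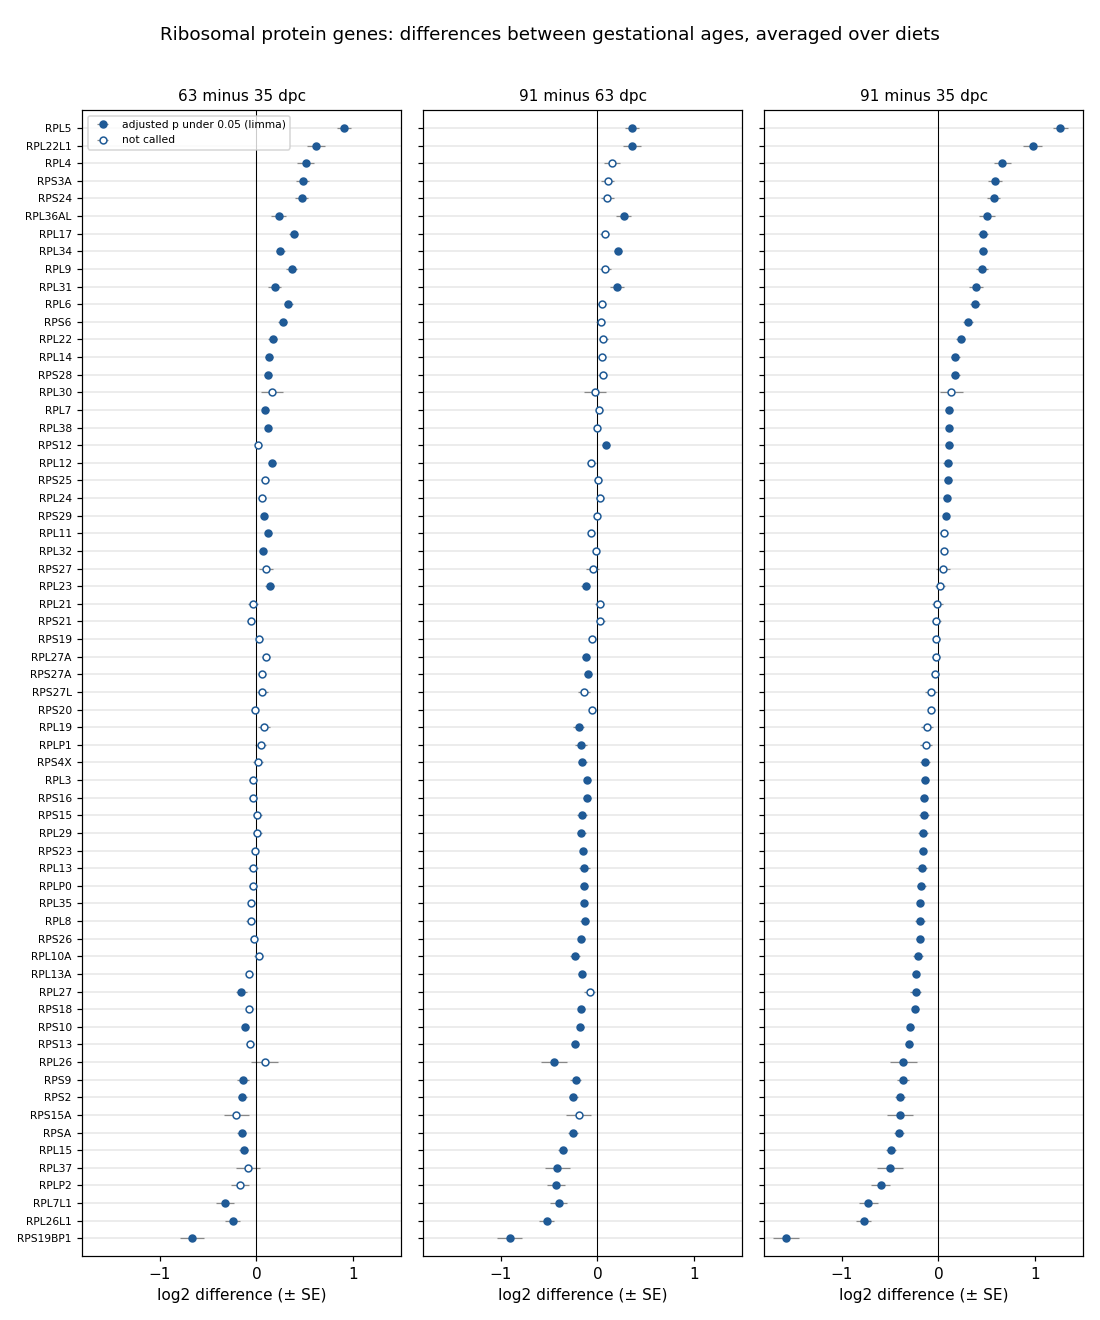
Log2 differences of the 64 ribosomal protein genes between ages, averaged over diets, with bars of 1 SE. Filled points were called by limma, and genes are ordered by their difference between 91 and 35 dpc. RPL5 and RPL22L1 head the rises and RPS19BP1, RPL26L1 and RPL7L1 the falls; centring each array shifts the points of a panel alike, with a change in the median of all probe sets of -0.24, -0.07 and -0.31 in the 3 comparisons.

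RPL5, a large subunit protein that carries the 5S ribosomal RNA and, outside the ribosome, restrains the p53 inhibitor MDM2, rose most. Its signal ran from 13.12 to 13.95 with a median of 13.70 at 35 dpc. It ran from 14.37 to 14.63 with a median of 14.51 at 63 dpc, and from 14.65 to 15.03 with a median of 14.88 at 91 dpc. No 2 ages overlapped, and no other member was separated in this way in both intervals. Its log2 difference was 0.91 ± 0.07 (SE) at 63 against 35 dpc (limma adjusted p = 5.4e-11) and 0.36 ± 0.07 at 91 against 63 dpc (limma adjusted p = 0.00014). At 91 against 35 dpc it was 1.26 ± 0.08, a 2.40-fold rise. That last difference was 1.26 among high-gap arrays alone and 1.27 among low-gap arrays alone, and 0.96 under centring. RPL11, its partner in the 5S particle, rose by 0.12 at 63 against 35 dpc but read -0.11 under centring, and its difference was 0.06 ± 0.04 at 91 against 35 dpc.

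RPL4, RPS3A, RPS24, RPL17 and RPL9 rose mainly in the first interval. RPL4 and RPL17 line the tunnel through which the new protein leaves the large subunit. RPS3A and RPS24 belong to the small subunit, and RPS24 is mutated in some patients with Diamond-Blackfan anaemia, a failure of red cell formation. RPL4 was 15.08 ± 0.17 at 63 dpc and 14.57 ± 0.32 at 35 dpc (SD, n = 12 and 10). RPS3A was 14.73 ± 0.12 at 63 dpc and 14.26 ± 0.24 at 35 dpc. RPS24 was 14.90 ± 0.12 at 63 dpc and 14.43 ± 0.24 at 35 dpc. The rises were 0.51 ± 0.08, 0.48 ± 0.07 and 0.47 ± 0.06 (SE) for RPL4, RPS3A and RPS24. At 91 against 63 dpc the same 3 genes differed by 0.15, 0.11 and 0.10, and none passed the test. RPL17 rose by 0.38 at 63 against 35 dpc and RPL9 by 0.37, with RPL9 past the threshold in all scalings only over the whole span. RPL6 (0.33) and RPS6 (0.27), the small subunit protein that S6 kinase phosphorylates, also rose over the first interval, but under centring neither was called. Over the whole span RPS6 was at 0.31 as deposited and at -0.001 under centring.

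RPL34, RPL36AL and RPL31 rose in both intervals as deposited. RPL34, a large subunit protein, rose by 0.25 at 63 against 35 dpc and by 0.21 at 91 against 63 dpc. Its arrays ran from 15.02 to 15.18 at 91 dpc, all above the 14.53 to 14.82 of 35 dpc. RPL31, also of the large subunit, rose by 0.19 and 0.20, and RPL36AL by 0.23 and 0.27, but centring turned the first rise of RPL31 to -0.05 and that of RPL36AL to -0.01. The first rise of RPL34 was 0.01 under centring (limma adjusted p = 0.84), and the second rise of RPL31 was 0.13 and lost its call (limma adjusted p = 0.085). With the red cell mean as a covariate, the second differences were -0.02, -0.11 and -0.41 for RPL34, RPL36AL and RPL31, and none was called.

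Among core subunit proteins, RPL15, RPSA, RPS2 and RPS9 fell in both intervals, as did RPS10. RPL15, mutated in some Diamond-Blackfan patients, ran from 14.33 to 14.64 at 35 dpc, from 14.19 to 14.48 at 63 dpc and from 13.87 to 14.22 at 91 dpc. The 91 and 35 dpc arrays did not overlap. It fell by 0.36 at 91 against 63 dpc (limma adjusted p = 1.7e-07) and by 0.13 at 63 against 35 dpc, and the fall over the whole span was 1.41-fold. RPSA, a small subunit protein also known as the laminin receptor, was 14.73 ± 0.13 at 35 dpc, 14.57 ± 0.05 at 63 dpc and 14.32 ± 0.12 at 91 dpc. RPS2, of the small subunit too, was 15.43 ± 0.13 at 35 dpc, 15.29 ± 0.08 at 63 dpc and 15.04 ± 0.09 at 91 dpc (SD, n = 10, 12 and 10). Over the span RPSA fell by 0.41 and RPS2 by 0.40. RPS9, also of the small subunit, fell by 0.37 over the span, but its first step of -0.14 rested on single arrays: its limma adjusted p ranged from 0.0081 to 0.12 when arrays were left out in turn.

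The acidic stalk of the large subunit, RPLP0, RPLP1 and RPLP2, recruits elongation factors. All 3 stalk genes fell at 91 against 63 dpc, RPLP2 by 0.42, RPLP1 by 0.17 and RPLP0 by 0.14. In that interval 29% of all probe sets and 41.2% of the other bright ones were called lower. RPLP2 ran from 12.91 to 13.68 at 91 dpc and from 13.34 to 14.16 at 63 dpc, so single arrays overlapped. At 63 against 35 dpc none of the 3 was called. RPL37 fell by 0.41 and RPL26 by 0.45 at 91 against 63 dpc. Both are large subunit proteins read here by dim probe sets, and their ages overlapped.

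By subunit, of 34 canonical large subunit genes 15 rose and 2 fell at 63 against 35 dpc, 3 rose and 16 fell at 91 against 63 dpc, and 13 rose and 13 fell over the whole span. As shares, 44.1% were higher and 5.88% lower, then 8.82% and 47.1%, and 38.2% each way over the span. Of 24 canonical small subunit genes, 5 rose and 4 fell, 1 rose and 12 fell, and 7 rose and 12 fell in the same comparisons, which is 20.8% and 16.7%, 4.17% and 50%, and 29.2% and 50%. Over all probe sets these shares, as deposited, were 32.5% higher and 28% lower, 29.5% and 29%, and 40.8% and 39.1%. The counts under other scalings below have no such share beside them. Whether the subunits differed from each other or from all probe sets was not tested. Without methyl-diet replicate 5 of 35 dpc the first split was 13 higher and 5 lower for the large subunit and 5 higher and 6 lower for the small one. Over the whole span it was 11 higher and 15 lower for the large subunit, and 6 higher and 13 lower for the small. The median differences of the large subunit genes were 0.08, -0.07 and 0.003, and those of the small subunit genes -0.003, -0.10 and -0.11. The first interval turned on the scaling here too: at 63 against 35 dpc, 10 large subunit genes were called higher and 6 lower under quantile normalization, and 3 higher and 22 lower under centring. For the small subunit these counts were 4 higher and 6 lower under quantile normalization, and 2 higher and 19 lower under centring. Under centring the whole span read 5 higher and 25 lower for the large subunit and 2 higher and 20 lower for the small subunit. The Diamond-Blackfan genes (16 members measured) were not of one direction either, with 6 higher and 3 lower at 63 against 35 dpc (37.5% and 18.8%) and 2 higher and 5 lower at 91 against 63 dpc (12.5% and 31.2%), but the first split became 2 higher and 10 lower under centring. Without methyl-diet replicate 5 of 35 dpc that first split was 6 higher and 4 lower. RPS27A, whose product is made as a fusion with ubiquitin, fell by 0.10 at 91 against 63 dpc and was called in no other age comparison.

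The largest falls and the second largest rise were of genes that are not standard subunits. Over the 6 such genes, the median size of difference at 91 against 35 dpc was 0.75, against 0.17 for the 54 bright canonical members and 0.86 over all probe sets tested. The mean signals of the 6 ran from 8.60 (RPS19BP1) to 13.46 (RPL22L1), below most canonical members. RPS19BP1 is not a subunit at all: it binds RPS19 and the deacetylase SIRT1. Its signal ran from 8.95 to 9.95 with a median of 9.34 at 35 dpc. It ran from 8.26 to 9.17 with a median of 8.62 at 63 dpc, and from 7.42 to 7.98 with a median of 7.90 at 91 dpc. The 91 dpc arrays lay below those of both earlier ages. It fell by 0.67 ± 0.13 and then by 0.91 ± 0.13 (SE), 2.98-fold over the span (limma adjusted p = 3.6e-12). RPS19 itself differed by -0.02 ± 0.04 over the same span.

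RPL22L1 and RPL22 are paralogs that can take the same place in the large subunit. RPL22L1 ran from 12.64 to 13.34 with a median of 12.88 at 35 dpc. Its range was 13.20 to 14.17 with a median of 13.49 at 63 dpc, and 13.53 to 14.07 with a median of 13.93 at 91 dpc. All arrays of 91 dpc lay above all of 35 dpc. RPL22L1 rose by 0.62 ± 0.09 and then by 0.36 ± 0.09 (SE), 1.96-fold over the span (limma adjusted p = 2.1e-10). RPL22 was higher by 0.23 ± 0.05 over the span as deposited and lower by 0.08 under centring, where it was not called.

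The other paralogs went differently. RPL7L1, a factor of large subunit assembly related to RPL7, fell by 0.32 and then 0.40, 1.65-fold over the span, while RPL7 was higher by 0.11 as deposited and lower by 0.19 under centring. RPL26L1 fell by 0.25 and then 0.52, and its arrays ran from 10.63 to 11.24 at 35 dpc, from 10.43 to 11.00 at 63 dpc and from 9.88 to 10.42 at 91 dpc, the last below all others. RPL26 differed by -0.36 ± 0.14 over the span, on a dim probe set. RPS27L, a p53-inducible paralog of RPS27, differed by -0.07 ± 0.06 and RPS27 by 0.05 ± 0.07 over the span, and neither was called. Whether a paralog and its partner changed unequally was not tested.

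**Figure D2:**
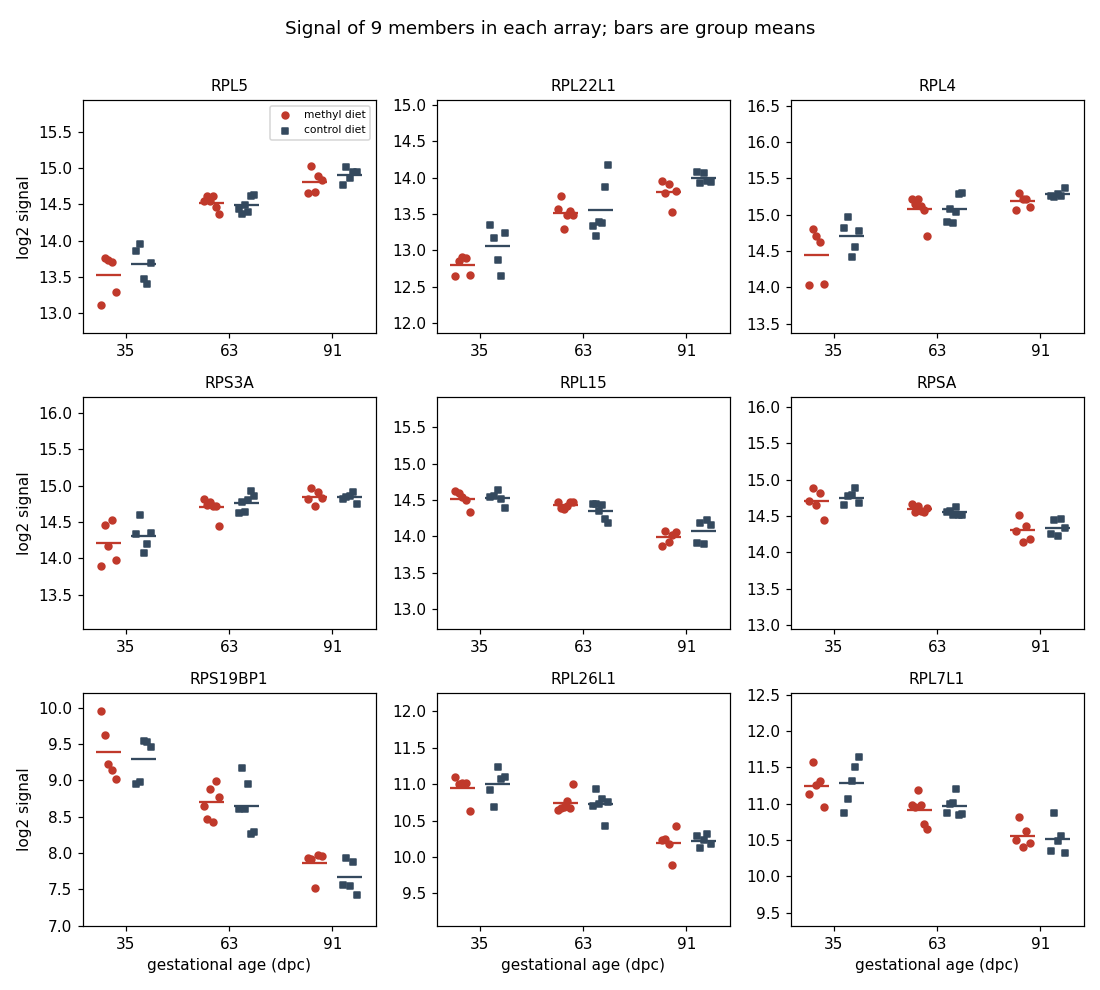
Log2 signal of 9 members in each array (vertical axis, the same span in every panel) by gestational age (horizontal axis), with methyl-diet arrays as circles left of control arrays as squares. RPL5 is separated at every age, the 91 dpc arrays of RPS19BP1 and RPL26L1 lie below all others, and the diets overlap in every panel.

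**Figure D3:**
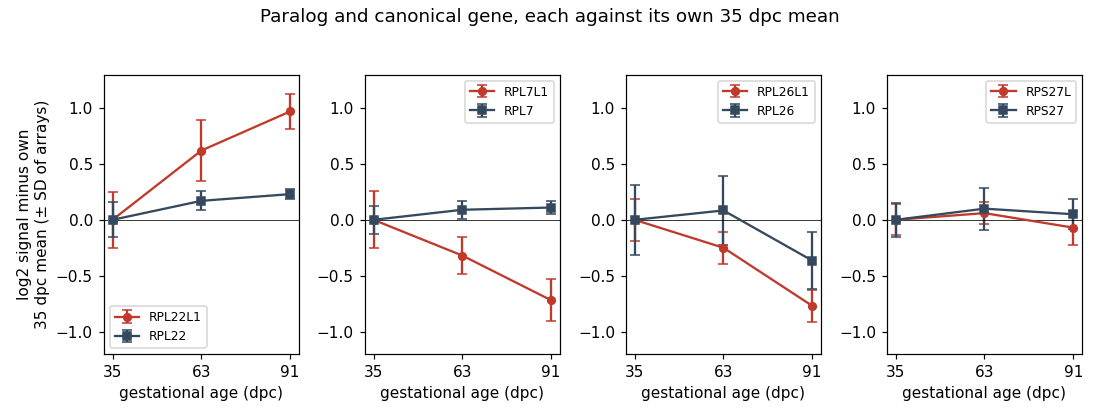
Mean log2 signal of 4 paralogs and their canonical genes at 35, 63 and 91 dpc, each minus its own 35 dpc mean, with bars of 1 SD over 10, 12 and 10 arrays. RPL22L1 rises to 0.97 and RPL7L1 falls to -0.72, while RPL22 and RPL7, whose sign turns under centring, stay within 0.23.

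Many members are read by more than 1 probe set, and these did not always tell the same story. Of the 64 genes, 24 had 2 or 3 probe sets, with 32 dimmer ones beside the brightest. Over the whole span, 15 of the 32 were called lower and 7 higher, and 2 lay at the floor and were not tested. Of all probe sets tested, 39.1% were called lower and 40.8% higher over that span. In 7 cases at 91 against 35 dpc the dimmer probe set was called in the opposite direction to the brightest, in RPL12, RPL24, RPL38, RPL6, RPLP0 and, with 2 dimmer probe sets, RPS28. At 91 against 63 dpc this was so for RPLP0, RPS12 and RPS27A, and at 63 against 35 dpc for RPS28. Over the whole span, the bright rises of RPL12, RPL24, RPL38 and RPS28 turned sign under another scaling. That of RPL6 was not called under all 3 scalings. RPL12 and RPL24 also lost their call without methyl-diet replicate 5 of 35 dpc. The calls of the dimmer probe sets are as deposited only, so these opposite calls depend on the scaling. At 91 against 63 dpc RPS12 rose by 0.09 on its bright probe set and fell by 0.68 on its dim one. The rise was not called under all 3 scalings and lost its call in some fits with 1 array left out. The dim probe set averaged 3.38, with values down to 2.31 near the floor, so its fall is uncertain.

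A set of 8 dimmer probe sets shares the cluster number of the brightest one and differs only in the letter code A or S of its ID. They belong to RPL12, RPL13A, RPL17, RPL23, RPL24, RPL32, RPL6 and RPS6. All 8 were lower at 91 against 63 dpc, with differences between -0.997 and -0.49, and 6 were called. In that interval 29% of all probe sets tested were called lower. The brightest probe sets of the same 8 genes differed by -0.16 to 0.08. The dimmer probe set of RPL12 averaged 8.62 at 35 dpc, 8.62 at 63 dpc and 7.62 at 91 dpc, where the brightest read 14.94, 15.10 and 15.03. That of RPL32 averaged 8.85, 8.71 and 7.85 at the same ages, where the brightest read 14.42, 14.49 and 14.48. Within groups the 8 moved together, with a correlation over the 32 arrays of 0.82 to 0.96 between pairs, against -0.14 to 0.87 for the brightest probe sets of these genes. The arrays are the points, and each array's RNA and hybridisation are shared by all probe sets. Their mean was higher by 0.63 in the high-gap than in the low-gap class of arrays. What these probe sets bind is not given in the sources used here, and copies of ribosomal protein genes elsewhere in a genome can share their sequence, so levels from dim probe sets are uncertain.

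A pair of dim probe sets rose steeply. One of RPS25 averaged 2.89 at 35 dpc, 3.95 at 63 dpc and 5.52 at 91 dpc, and its brightest one 15.00, 15.09 and 15.10. One of RPS27A averaged 3.57 at 35 dpc, 4.07 at 63 dpc and 5.66 at 91 dpc, against 14.81, 14.87 and 14.77 for the brightest. The rises over the span were 2.62 ± 0.21 and 2.09 ± 0.18 (SE), and the bright probe sets differed by 0.09 and -0.04. When all probe sets of a gene were averaged, 15 members were called higher and 33 lower over the span, and the median of the members was -0.14. As deposited, 40.8% of all probe sets tested were called higher and 39.1% lower over the span.

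**Figure D4:**
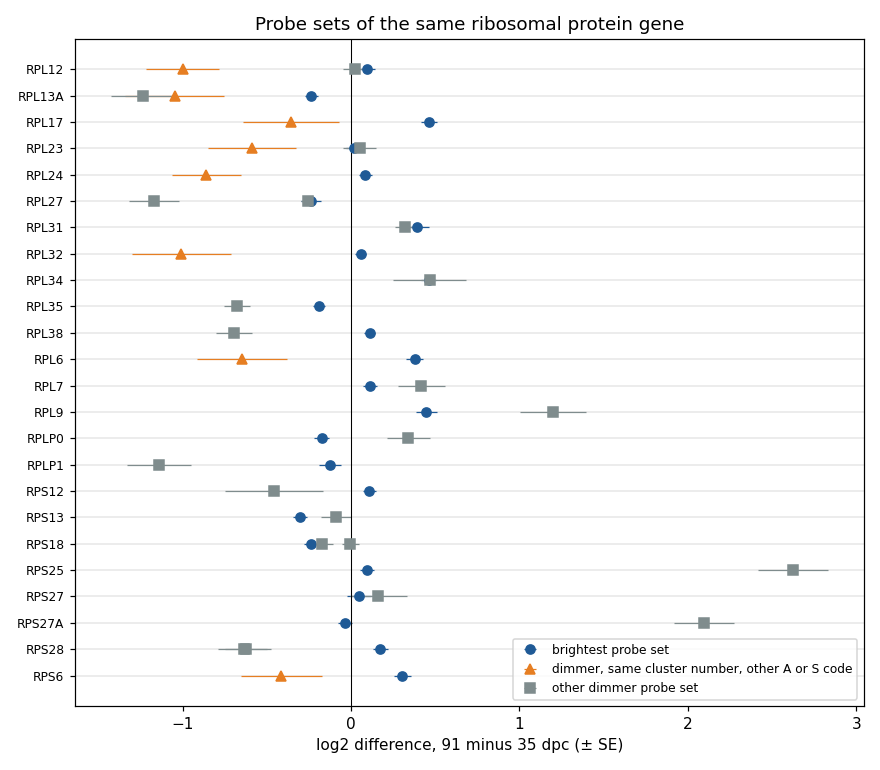
Log2 difference at 91 against 35 dpc (± SE) of every tested probe set of the 24 ribosomal protein genes with more than 1. Circles are the brightest probe set of a gene, triangles the dimmer one with the same cluster number, squares other dimmer ones; all 8 triangles lie left of 0, and squares of RPS25 and RPS27A lie beyond 2.

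Most genes that build the ribosome were lower at 91 than at 35 dpc. Of 51 measured genes of ribosome biogenesis and the nucleolus, 13 rose and 36 fell (70.6%, against 39.1% of all probe sets called lower), with a median of -1.13. They include FBL, the methyltransferase of box C/D particles, which was 11.67 ± 0.20 at 35 dpc, 10.85 ± 0.20 at 63 dpc and 9.97 ± 0.11 at 91 dpc. NHP2 and NOP10, proteins of the box H/ACA particles, fell by 1.92 and 1.34 over the span. Of 58 mitochondrial ribosomal proteins, 7 rose and 46 fell (79.3%), with a median of -1.08, and MRPS17 fell by 2.22. The median of the 64 cytosolic members, most of them among the brightest on the array, was -0.06 in the same comparison, and the difference between the lists was not tested. Of 8 measured growth control genes, 2 rose and 5 fell, among them MYC, which drives ribosome production and fell by 1.07. Over the same span 16 of 18 cell cycle genes fell (88.9%) and 1 rose, with a median of -2.70.

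Other translation genes whose messages carry a TOP tract were a mixed set, with 10 higher and 5 lower of 16 over the span (62.5% and 31.2%, against 40.8% and 39.1% of all probe sets) and a median of 0.37. EIF3E, an initiation factor subunit, rose by 2.80, EIF4B by 1.42 and NACA, a chaperone of nascent chains, by 1.16. FAU, whose product includes the small subunit protein eS30, fell by 0.22, and RACK1, which sits on the small subunit, by 0.18.

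Red cell and hepatocyte markers moved with age beside these results. At 91 against 35 dpc, 8 of 10 red cell genes fell and 1 rose, with EPOR, the erythropoietin receptor, lower by 3.30. Of 16 hepatocyte genes, 10 rose and 3 fell (62.5% and 18.8%). Of the red cell genes 10% were higher and 80% lower, and of all probe sets 40.8% and 39.1%. Of the smaller marker lists, 3 of 7 macrophage genes rose over the span. That is 42.9%, close to the share of all probe sets, and the list median was -0.04. Of the granulocyte genes 3 of 5 fell (60%), as did both tested megakaryocyte genes. On the lymphocyte list the T and B cell genes CD3D, CD3E, CD4, CD79B and CD8A did not pass the filter on low values. Its 3 tested genes, SLA-DRA, SLA-DQA1 and CD74, rose, but they serve antigen presentation by MHC class II and are also expressed by macrophages. The stellate, endothelial, cholangiocyte, pancreas and muscle lists had 5, 4, 2, 1 and 2 tested genes, with 1, 2, 1, 0 and 1 higher and 2, 1, 0, 1 and 1 lower. With the red cell mean as a covariate RPL5 differed by 1.34 over the span and RPS19BP1 by -0.76, with RPL5 called and RPS19BP1 not. The red cell mean ran from 8.52 to 9.77 at 91 dpc and from 10.97 to 11.74 at 35 dpc. With no overlap between these ages, that fit had little with which to separate age from red cell level. The part of these cell types in the members' differences was not tested.

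Diet gave no call. For each age, no ribosomal protein gene differed between the methyl-enriched and the control diet by limma at an adjusted p under 0.05. Over all probe sets, 6 were called at 35 dpc (0.0391%), 0 at 63 dpc (0%) and 11 at 91 dpc (0.0718%), and 0 (0%) for the diet effect averaged over ages or for its difference between ages. At an unadjusted p under 0.05 there were 8 members at 35 dpc (12.5%, against 6.09% of all probe sets), 1 at 63 dpc (1.56% against 1.43%) and 1 at 91 dpc (1.56% against 6.52%). The 8 became 3 without methyl-diet replicate 5 of 35 dpc. The averaged effect gave 2 (3.12% against 4.47%) and the difference between ages 1 (1.56% against 4.31%). No alternative setting called a member for diet. The largest difference of any member at any age was 0.40 in size, and the median SE was 0.07, 0.06 and 0.07 at the 3 ages. Leaving out RPS15A and RPL30, the 95% intervals of the other 62 members reached from -0.54 to 0.61 at 35 dpc, from -0.48 to 0.51 at 63 dpc and from -0.78 to 0.57 at 91 dpc, so a difference of up to 0.78 is within the interval of at least 1 member.

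RPL36AL had the smallest p at 35 dpc. Its 5 methyl-diet arrays read 12.75, 13.07, 13.01, 13.37 and 12.90, and its 5 control arrays 13.36, 13.18, 13.28, 13.29 and 13.51. The diets overlapped. The difference was -0.31 ± 0.11 (SE), with an unadjusted p of 0.011 and a limma adjusted p of 0.67. RPS24 followed with -0.22 ± 0.10 (limma adjusted p = 0.76), and RPL9, RPS6 and RPL23 with -0.20, -0.16 and -0.16. At 35 dpc, 50 of the 64 members read lower in the methyl diet (78.1%, against 54.2% of all probe sets), with a median of -0.05, against -0.04 over the other bright probe sets. Without methyl-diet replicate 5, 30 read lower and the median was 0.007. The differences were also unequal between the array classes: that of RPL36AL was -0.50 among high-gap and -0.02 among low-gap arrays.

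At 91 dpc RPL37 had the smallest p. Its 5 methyl-diet arrays read 7.16, 7.69, 7.90, 6.84 and 7.25, and its 5 control arrays 8.10, 7.65, 7.91, 7.24 and 7.90. They overlapped, and the difference was -0.40 ± 0.19 (SE), with an unadjusted p of 0.045 and a limma adjusted p of 0.75. At 63 dpc RPL35 had the smallest p, with a difference of 0.10 ± 0.04 (limma adjusted p = 1). Averaged over ages, RPS4X was at -0.09 ± 0.04 and RPL22L1 at -0.16 ± 0.08, with a limma adjusted p of 0.999 each. No gene of the lists on ribosome biogenesis, TOP messages, mitochondrial ribosomal proteins, growth control or the cell cycle was called for diet.

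**Figure D5:**
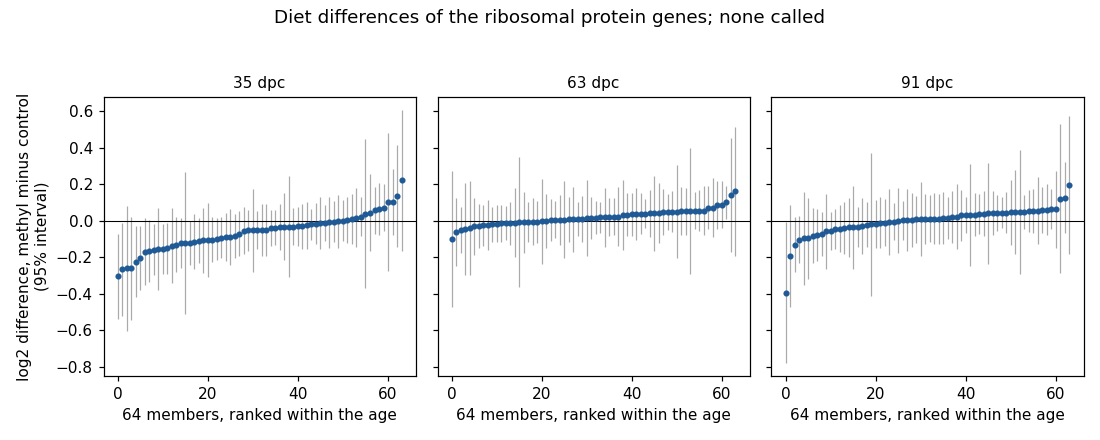
Log2 difference between methyl-enriched and control diet of each of the 64 members (points, with 95% intervals) at 35, 63 and 91 dpc, ranked within each age. The points stay within 0.40 of 0, and 50 of 64 lie below 0 at 35 dpc, or 30 without methyl-diet replicate 5 of that age.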

How the data were processed

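The deposited values are log2 signals, 1 per probe set and array; the submitters' processing notes list GCOS 1.1.1. How probes were summarised and arrays normalized is not given in the sources used here, and nothing was rescaled. Of 23999 probe sets other than controls, 15327 lay above the 40th percentile of their array in at least 5 arrays. limma 3.58.1 in R 4.3.3 estimated 6 group means (3 ages by 2 diets) under an intensity trend with 26 residual degrees of freedom, and p-values were adjusted by Benjamini-Hochberg over all 15327 probe sets of a contrast. No paired test was made. The fit was tested on simulated data.

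Gene symbols came from the array annotation, and the symbols of all 64 members were also those of RefSeq. A further limit is that the probe sets of 3 members end in _s_at or _x_at and may match several transcripts. The members, gene lists and comparisons were chosen with earlier results of these data known. Named by rule were, per age comparison, up to 8 members with the largest rises and 8 with the largest falls among those called. For diet the rule took the 5 smallest p-values, and it added the paralogs with their partners, members whose probe sets were called in opposite directions, the 4 brightest, the 4 dimmest and up to 3 genes of each other list. RPL11, RPS10, RPL34 in the first interval, the stalk genes and RPS6 over the span were named beside these. Alternatives changed the trend, filter, scaling, array weights, probe set choice, covariates, threshold and arrays.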

Additional observations from a re-analysis of the deposited data

Results flagged for a closer look

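A single array lay apart from the other 4 or 5 of its group by Dixon's 95% criterion in 20 of 288 groups, over 48 named members. Chance alone flags about 1 in 20 groups, a rate that does not hold for RPL30. Of the 20, 6 were of methyl-diet replicate 5 at 35 dpc. There RPL26L1 read 10.63, against 11.00 to 11.10 in the other arrays of its group, RPL27 14.30 against 14.72 to 14.88, RPL3 14.23 against 14.53 to 14.64, RPL35 15.02 against 15.22 to 15.26, RPS29 15.45 against 15.59 to 15.62, and RPL30 2.20 against 3.31. All 6 were low. The RPL30 probe set, near the floor, read 3.31 in most arrays, so a single other value in a group is flagged whatever its size. For RPL30, low and high name the reading only and are not read as a direction.

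A further 4 were of methyl-diet replicate 6 at 63 dpc, where RPL26L1 (11.00) and RPLP2 (14.16) were high and RPL4 (14.71) and RPS3A (14.45) low. At 35 dpc RPL26 read 6.66 in control replicate 1, RPL30 3.51 in control replicate 2, RPL7 15.49 in control replicate 5 and RPL34 14.82 in methyl-diet replicate 3, all high. At 63 dpc RPL30 read 4.16 in methyl-diet replicate 4 and RPS15A 3.07 in control replicate 4, both high and near the floor. At 91 dpc, in the methyl diet, RPL22 read 14.81 in replicate 2, RPL36AL 13.37 in replicate 4 and RPS19BP1 7.52 in replicate 3, all low, and RPL30 3.65 in replicate 1, high.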

How the results depend on the processing

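Of the 31 members called at 63 against 35 dpc, the count became 20 without the intensity trend, 51 with each array centred on its median and 16 with low-gap arrays alone. Of the 37 called at 91 against 63 dpc, it became 23 with high-gap and 17 with low-gap arrays alone, and 1 with the red cell mean as a covariate. The 50 called at 91 against 35 dpc became 11 with that covariate. Calls over all probe sets changed too. At 63 against 35 dpc they went from 9278 to 9268, about 10090 and 4798 in the same order of settings. At 91 against 63 dpc they went from 8963 to 7642, 5260 and 1065. At 91 against 35 dpc they went from 12250 to 4465. The fits on part of the arrays have fewer samples; otherwise the cause was not tested. Centring changed the median difference of the members to -0.20, -0.17 and -0.36 in the same order of comparisons. The red cell covariate changed it to -0.0098 at 91 against 63 dpc and 0.053 at 91 against 35 dpc, and averaging the probe sets of a gene to -0.14 at 91 against 35 dpc. With the covariate 4 single values changed sign: RPL36AL (-0.11), RPL34 (-0.022) and RPL31 (-0.41) at 91 against 63 dpc and RPL36AL (-0.010) at 91 against 35 dpc. RPS12 became -0.30 at 91 against 63 dpc when its probe sets were averaged. Of the 46 single differences named by age, 26 lost their call with the covariate, the 4 that changed sign included, 14 with low-gap and 7 with high-gap arrays alone, 5 with the probe sets of a gene averaged, RPS12 included, and at most 4 in any other setting. All other settings kept every count within 1.5 times and every direction of the genes named by age. Leaving out each array in turn gave 28 to 34, 34 to 38 and 47 to 51 called members, and of the single values RPS9 at 63 against 35 dpc and RPS12 at 91 against 63 dpc lost their call in some. No setting called a member for diet. No paired analysis was possible because the replicate numbers only follow the order of the samples.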
